A study of Mus musculus with 13 samples.

Results

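The AP-1 and EGR immediate early genes were followed in sorted eosinophils of the mouse small intestine, taken from its lamina propria. They were defined as 10 named genes: Fos, Fosb, Fosl2, Jun, Junb, Jund, Egr1, Egr2, Egr3 and Ier2. Each was represented by a single probe set in both deposited array tables, out of 21395 genes in the first table and 25003 in the second. The first table held 10 arrays of Clec4a4-mCherry reporter mice, 5 of mCherry+ and 5 of mCherry- eosinophils numbered 1 to 5. In these knock-in animals mCherry marks the cells that express Clec4a4, an inhibitory C-type lectin receptor, and both sorts carry the reporter allele. The second table held 3 arrays of another model, with 1 array per group: Clec4a4+ cells from a wild-type (WT) background, Clec4a4- cells from the same background, and Clec4a4- cells from Ahr knockout (KO) mice. The product of Ahr, the aryl hydrocarbon receptor, is a transcription factor that responds to dietary and microbial ligands. The labels used here do not say whether the knockout was limited to some cell types, nor do they give strain or age. Reporter samples are titled biological replicates, but the labels do not say which mice each came from, whether mice were pooled or what the numbers stand for. The p-values therefore measure only how far these samples spread.

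Immediate early genes are transcribed within minutes of a stimulus, without new protein synthesis, when MAP kinases activate factors such as SRF, ELK1 and CREB on their promoters. Fos and Jun proteins join through leucine zippers into AP-1, which binds DNA at many inflammatory genes, while EGR proteins bind GC-rich sites through zinc fingers. In tissue work the same genes are known to respond to enzymatic digestion and cell sorting as well as to signals the cells met in the animal.

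Promoter sequences are shown for 3 members, because Egr2 was the member with the largest difference between the reporter sorts and Fos and Jun are the founding AP-1 genes. They are from RefSeq on GRCm38.p6, where 7 of the 10 genes were matched and searched over the 250 bases before a listed start. Egr1, Egr3 and Ier2 were not searched. Capitals mark the matches to the motifs named after the sequences, and all are written 5′ to 3′ on the strand of the gene. The Egr2 stretch lies at chr10:67537792-67537821 (plus strand, positions -77 to -48 from 1 of 5 listed starts, inside the gene of longer listed transcripts), the Fos stretch at chr12:85473790-85473889 (plus strand, positions -100 to -1) and the Jun stretch at chr4:95052223-95052322 (minus strand, positions -100 to -1).
Egr2: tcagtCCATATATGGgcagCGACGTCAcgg
Fos: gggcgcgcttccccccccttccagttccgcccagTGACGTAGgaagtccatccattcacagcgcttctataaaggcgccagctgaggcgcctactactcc
Jun: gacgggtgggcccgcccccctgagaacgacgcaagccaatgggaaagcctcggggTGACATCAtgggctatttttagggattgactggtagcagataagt
In Egr2 the first run of capitals is a CArG box, the sequence bound by SRF, and the second is the core of a cyclic AMP response element (TGACGTNN, here on the other strand). A CArG box was found in 1.47% of 32851 promoter windows of this length and, among the 7 matched members, in Egr2 alone. Egr2 was searched over 5 windows and each other matched member over 1, so Egr2 had more chances of a match. Bases further from the start were not searched. The core TGACGTNN was found in 6.38% of windows, and among these members in Egr2 and Fos. In Jun the capitals mark TGACATCA, a variant AP-1 site found in 2.93% of windows. The AP-1 site TGANTCA (6.75% of windows) and the full element TGACGTCA (1.55%) were found in none of the 7. The EGR site GCGNGGGCG (4.7%) was found in Fosb and Fosl2. Both strands were searched, the full element is also a match to its core, and a match is a description of the letters only.

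All values are log2 intensities from the authors' RMA tables, on which 1 unit is a doubling of signal. Levels of different genes are not comparable, since each rests on its own probes. The mean of each member over the reporter arrays, and each value in the single arrays, lay above the median of all gene values in its table (5.36 and 4.80). Clec4a4 was 9.18 ± 0.62 (SD, n = 5) in mCherry+ and 7.52 ± 0.62 in mCherry- arrays, and 9.14 in the WT Clec4a4+, 5.56 in the WT Clec4a4- and 3.93 in the Ahr KO Clec4a4- array. Ahr was 11.10 ± 0.44 in mCherry+ and 10.09 ± 0.64 in mCherry- arrays, and higher in mCherry+ within all 5 numbers. In the single arrays Ahr was 11.12 in the array labelled Ahr KO against 11.11 and 11.08 in the WT arrays. Which part of the transcript its probes cover is unknown here, so this level does not check the label. Of 16 eosinophil markers, 12 lay above the table median in the reporter arrays and 14 in the single arrays, with the eotaxin receptor Ccr3 at 10.53 ± 0.73 in mCherry- and 10.65 ± 0.59 in mCherry+ arrays. All 20 epithelial markers lay above the median in the reporter arrays. Their mean level was 7.94 and 8.27 in the arrays of number 1 and 9.97 to 10.95 in the other 8. In the single arrays it was 5.48 to 5.98, with 17 of 20 markers above the median.

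The reporter arrays ask which genes differ between mCherry+ and mCherry- eosinophils. Clec4a4 signal itself lay above the table median in both sorts. Egr2 was the member with the largest difference between the sorts. EGR2 is a zinc finger factor known for restraint of T cell activation and for a part in macrophage differentiation. In mCherry- arrays 1 to 5 Egr2 stood at 7.63, 7.32, 8.53, 7.997 and 7.94. In mCherry+ arrays 1 to 5 it stood at 8.77, 9.28, 10.13, 9.23 and 10.33. The groups did not overlap, and each mCherry+ array exceeded the mCherry- array of its own number. The differences within a number were 1.15, 1.96, 1.59, 1.23 and 2.38, with a mean of 1.66 (SD 0.52, n = 5), a 3.17-fold difference in signal. In bulk samples such as these, fewer cells with the transcript and less RNA per cell cannot be told apart.

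The test was limma's moderated linear model over all 21395 genes, with p-values adjusted by Benjamini-Hochberg and genes called at an adjusted p under 0.05. By this test Egr2 did not pass (difference 1.66, SE 0.32, 95% interval 0.97 to 2.36, adjusted p = 0.0581). With the replicate number as a block, limma gave Egr2 an SE of 0.18, a 95% interval of 1.24 to 2.08 and an adjusted p of 0.00417. Clec4a4, the gene that the reporter marks, was likewise called only with the block (difference 1.66, limma adjusted p = 0.0804 without it and 0.00205 with it). So was Ahr (difference 1.00, limma adjusted p = 0.347 and 0.00234). The block was fitted because arrays of the same number deviated together from their group means. The correlations of these deviations were 0.659 and 0.527 for numbers 1 and 4, but 0.165, 0.171 and 0.199 for numbers 2, 3 and 5. Hence 0 of the 10 members were called without the block, where 0.355% of all genes were, and 1 of 10 with it, where 1.76% of all genes were. Without the block 1 member had an unadjusted p under 0.05 in limma, as had 7.33% of all genes, and with it 3 had, as had 11.8% of all genes. Egr2 ranked 14 among all genes by the size of a difference in favour of mCherry+ and 92 by p-value.

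**Figure D1:**
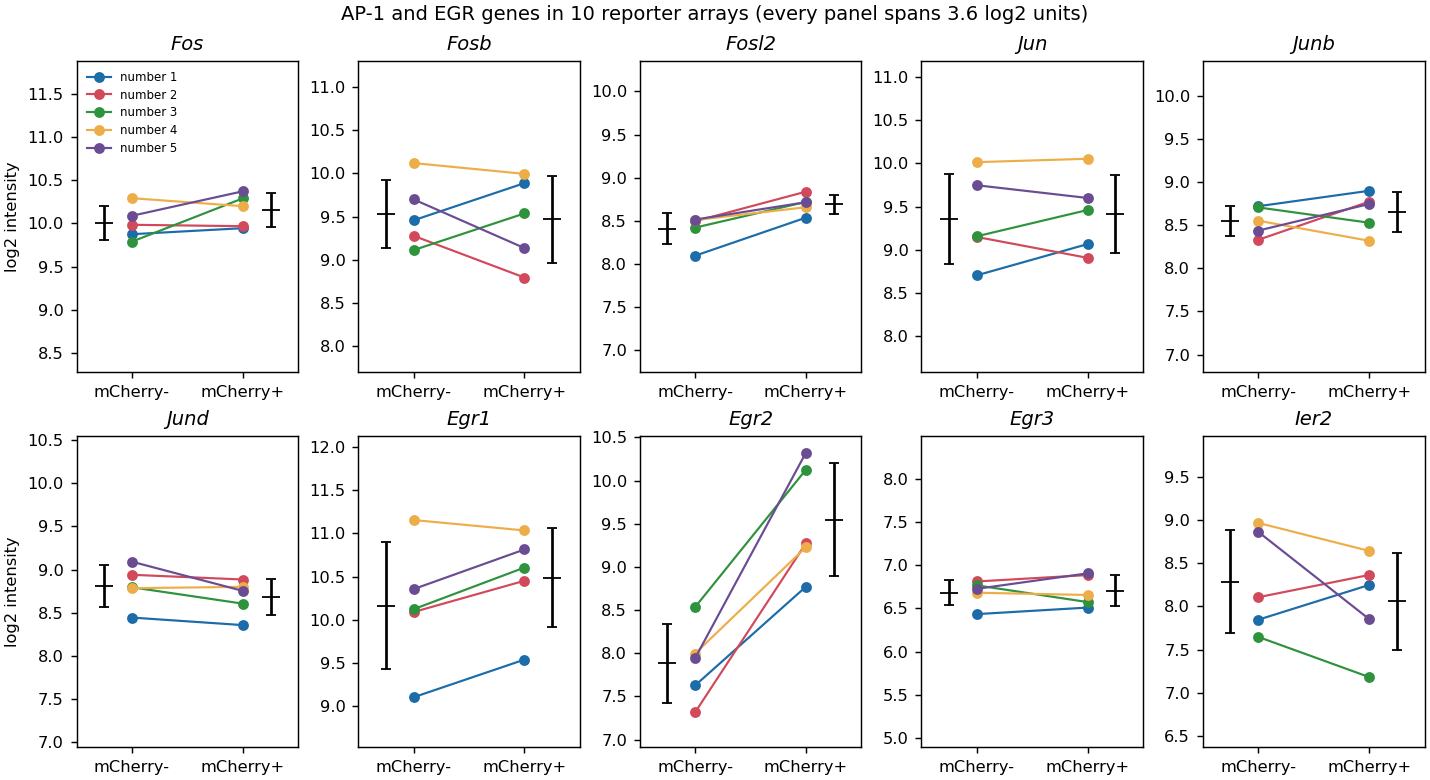
Log2 intensity (vertical axis, 3.6 units in every panel) of each AP-1 and EGR gene in the 5 mCherry- and 5 mCherry+ arrays, with a line joining the arrays of 1 replicate number and black bars for mean ± SD. Egr2 is higher at the mCherry+ end of all 5 lines, at 8.77 to 10.33 against 7.32 to 8.53, while the lines of most other genes cross.

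The other EGR genes differed less and did not pass. Egr1, the family member induced most widely by growth factors and stress, stood at 9.10, 10.09, 10.12, 11.16 and 10.35 in mCherry- arrays 1 to 5. In mCherry+ arrays 1 to 5 it stood at 9.54, 10.45, 10.60, 11.03 and 10.81. The groups overlapped almost fully, although within a number mCherry+ was higher in 4 of 5 pairs, by 0.36 to 0.48, and lower by 0.12 in number 4. The mean difference was 0.32 (SE 0.36, adjusted p = 0.959 by limma, and 0.228 with the block, unadjusted p = 0.0124). With 1 array left out in turn this difference ran from 0.058 to 0.57. Egr3, which acts with Egr2 in lymphocytes, ranged from 6.43 to 6.81 in mCherry- and from 6.51 to 6.91 in mCherry+ arrays. Its difference was 0.02 with a 95% interval of -0.28 to 0.33 (limma adjusted p = 0.996). The difference of Egr2 was the larger within all 5 numbers when set against each of the other 9 members. Against Egr1 it was larger by 0.71 to 1.92, and against Egr3 by 1.07 to 2.20. Egr2 was singled out after its values were seen, so this is a description without a test.

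Among the Fos family, Fosl2 showed a small difference that did not pass. Fosl2 encodes FRA2, a partner of Jun proteins without the strong activation domain of FOS. It stood at 8.10, 8.50, 8.42, 8.51 and 8.52 in mCherry- arrays 1 to 5 and at 8.54, 8.84, 8.72, 8.66 and 8.72 in mCherry+ arrays. These groups did not overlap either, and the mCherry+ array was higher in 5 of 5 pairs, by 0.15 to 0.44. Limma gave a difference of 0.29 (SE 0.13, 95% interval -0.01 to 0.58, adjusted p = 0.696, and 0.309 with the block). Fosl2 and Egr2 were the 2 of 10 members with groups apart, both higher in mCherry+. Over all genes 0.832% were apart in that direction, and 5.97% were higher in 5 of 5 pairs.

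Fos, the founding member of AP-1, stood at 9.88, 9.98, 9.79, 10.29 and 10.09 in mCherry- arrays 1 to 5. In mCherry+ arrays 1 to 5 it stood at 9.95, 9.97, 10.29, 10.20 and 10.37. The groups overlapped, and the difference of 0.15 had a 95% interval of -0.16 to 0.45 (limma adjusted p = 0.941). Fosb, whose product resembles FOS, ranged from 9.11 to 10.12 in mCherry- and from 8.79 to 9.99 in mCherry+ arrays. Its differences within a number ran from -0.57 to 0.43 and averaged -0.06 (95% interval -0.63 to 0.51, limma adjusted p = 0.994). Its largest differences in either direction exceeded the mean difference of every member but Egr2.

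No Jun gene passed the test, and the groups of each overlapped. Jun, the AP-1 subunit activated by JNK phosphorylation, ranged from 8.70 to 10.02 in mCherry- and from 8.91 to 10.05 in mCherry+ arrays. Its difference was 0.06 (95% interval -0.55 to 0.67, limma adjusted p = 0.994). Junb, often a brake on JUN and a driver of type 2 cytokine genes in T helper cells, ranged from 8.33 to 8.72 and from 8.32 to 8.90. Its difference was 0.10 (95% interval -0.23 to 0.44, limma adjusted p = 0.974). Jund, the Jun gene with the most constant expression in most cells, was lower in mCherry+ in 4 of 5 pairs. Its difference was -0.13 (95% interval -0.48 to 0.22, limma adjusted p = 0.964). Every one of these intervals allows a difference of 0.22 or more in at least 1 direction.

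Ier2, an immediate early nuclear protein outside both families, had the widest spread of differences within a number among the 10 members. It stood at 7.85, 8.11, 7.65, 8.97 and 8.86 in mCherry- arrays 1 to 5. In mCherry+ arrays 1 to 5 it stood at 8.25, 8.36, 7.18, 8.64 and 7.85. The difference was 0.40 and 0.26 in numbers 1 and 2 and -0.47, -0.32 and -1.01 in numbers 3 to 5. The mean of -0.23 (SE 0.33, limma adjusted p = 0.973) lay within the SD of 0.57 between those differences, and with 1 array left out in turn it ran from -0.39 to -0.0087. Over the 10 members, 7 were higher and 3 lower in mCherry+ by sign, with a median of 0.08 against -0.01 over all genes.

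Levels of Egr1 and Jun differed more between replicate numbers than between the sorts. The share of a gene's variance between the 5 numbers exceeded that between the sorts for 8 of the 10 members and for 89% of all genes, so this count is no result about the members. Egr2 and Fosl2 were the exceptions among them. These shares are parts of the summed squared deviations, not corrected for how many groups are compared. Noise alone therefore gives the 5 numbers a larger share than the sorts. The median share between numbers was 72.1% for the members and 53.0% over all genes. It was 92.1% for Jun, 89.6% for Egr1 and 21.3% for Egr2, whose share between sorts was 73.1%. Egr1 averaged 9.32, 10.27, 10.36, 11.09 and 10.58 over the pairs numbered 1 to 5, and Jun 8.88, 9.03, 9.31, 10.03 and 9.67. Both means were lowest in number 1 and highest in number 4, a range of 1.77 for Egr1 and 1.15 for Jun. The epithelial markers ran in a like order, with means of 7.94, 9.97, 10.07, 10.95 and 10.67 in mCherry- arrays 1 to 5 and 8.27, 9.97, 10.01, 10.82 and 10.32 in mCherry+ arrays. Ccr3 ran the other way and was lowest in number 4, at 9.42 in the mCherry- and 9.75 in the mCherry+ array. The part of epithelial RNA in the levels of Egr1 and Jun was not tested. Egr2 averaged 8.20, 8.30, 9.33, 8.61 and 9.13 over the pairs and was highest in number 3.

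**Figure D2:**
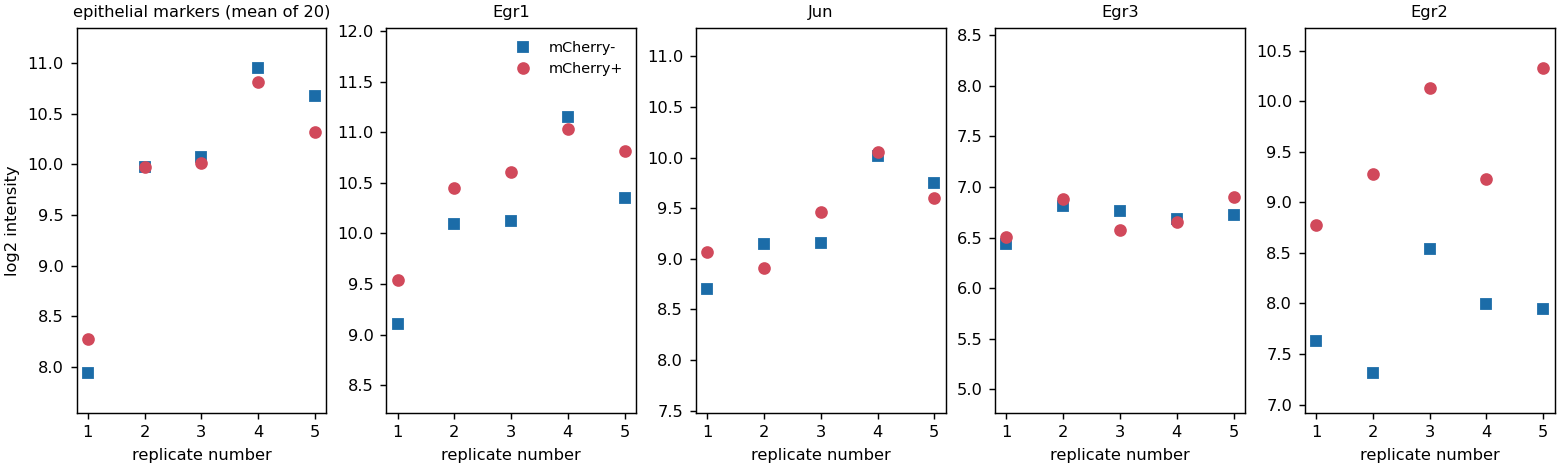
Log2 intensity (vertical axis, 3.8 units per panel) by replicate number in mCherry- (squares) and mCherry+ (circles) arrays for the mean of 20 epithelial markers and for Egr1, Jun, Egr3 and Egr2. Epithelial markers and Egr1 are lowest in number 1 and highest in number 4 in both sorts, Jun is highest in number 4 in both but lowest in number 2 among mCherry+ arrays (8.91), and for Egr2 the circles lie above the squares at every number.

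Marker levels were also set beside the Egr2 difference, and the markers named here were named after their values were seen. The mean level of the 16 eosinophil markers was lower in mCherry+ in 5 of 5 pairs, by differences of -0.58 to -0.13. By sign 7 of the 16 were higher and 9 lower in mCherry+, with a median difference of -0.06. Of these 16, the eosinophil ribonuclease gene Ear6 fell from 7.89 ± 0.79 to 5.02 ± 0.22 (limma adjusted p = 0.00358). With the block Ear1, Ear2 and the granule protein gene Prg2 fell as well (adjusted p = 0.00931, 0.0279 and 0.0438, against 0.0505, 0.0751 and 0.689 without it). In mCherry+ arrays Ear6 (5.02), Ear1 (5.11) and Ear2 (3.80) lay below the table median of 5.36. Ear2 was also below it in mCherry- arrays (5.11). The Ear genes are close paralogs, and their probes may share signal. The mean epithelial level in mCherry+ minus mCherry- pairs had both signs, and 0 of 20 epithelial markers were called in either fit. Of 12 neutrophil markers, 5 lay above the table median. Their mean level was 5.78 to 5.996 in mCherry+ and 6.52 to 7.42 in mCherry- arrays, lower in mCherry+ in every pair. By sign 3 of the 12 were higher and 9 lower in mCherry+, with a median difference of -0.14. The brightest, Retnlg, was 12.09 ± 0.29 in mCherry+ and 12.18 ± 0.25 in mCherry- arrays. Of the 12, 2 fell in both fits, the calprotectin subunits S100a8, from 10.69 ± 1.05 to 5.41 ± 0.76 (limma adjusted p = 0.00117), and S100a9, from 11.03 ± 1.10 to 6.003 ± 0.99 (limma adjusted p = 0.00358). The 18 macrophage and dendritic cell markers had a mean of 5.85 to 6.42 in mCherry+ and 5.87 to 6.15 in mCherry- arrays, with 9 above the median, and their mean was higher in mCherry+ in 4 of 5 pairs. Of them 0 were called without the block, and the lysosomal gene Cd68 rose by 1.28 with it (adjusted p = 0.0429, against 0.0535 without). The 11 measured T cell, NK cell and ILC markers had means of 5.71 to 6.64 and 5.38 to 6.66, with 7 above the median and 0 called. The 9 B and plasma cell markers had means of 5.51 to 6.68 and 5.59 to 6.34, with 5 above the median and 0 called. The 10 stromal and endothelial markers had means of 6.04 to 7.19 and 6.02 to 6.997, with 6 above the median. Within a number their mean was higher in mCherry+ in 5 of 5 pairs, by 0.022 to 0.40, the direction of Egr2. Of them 0 were called without the block, and Pecam1, an adhesion molecule of endothelium and leukocytes, rose by 0.78 with it (adjusted p = 0.0121, against 0.444 without). The 8 mast cell markers had means of 4.67 to 5.28 and 4.73 to 5.13, with 2 above the median and 0 called. The part of other cells in the Egr2 difference was not tested.

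Related gene lists showed which neighbours of the members in the pathway moved. Over all genes 0.355% were called without the block and 1.76% with it, shares that stand beside the counts of each list below. Of 26 other immediate early genes, 1 was higher and 0 lower without the block, and 2 were higher and 3 lower with it (median difference 0.06). Rhob, a small GTPase induced by stress and growth factors, rose from 6.14 ± 0.17 to 7.10 ± 0.31 (difference 0.96, SE 0.17, limma adjusted p = 0.0402). This call held in 2 of 10 fits with 1 array left out, those without array 4 of either sort, and the adjusted p was otherwise 0.0702 to 0.127. Of genes called with the block alone, and thus outside the naming rule except for Nr4a2 and Myc, the orphan nuclear receptor Nr4a2 rose by 1.24 (adjusted p = 0.0381 with the block, 0.122 without). The growth regulator Myc fell by 1.83 (0.0394 and 0.0618), the survival factor Ier3 fell by 1.37 (0.0063 and 0.329) and the stress gene Gadd45b fell by 1.13 (0.0333 and 0.0848). These 5 genes went in both directions. Fosl1, which encodes the AP-1 protein FRA1, differed by -0.88 in mCherry+ (limma adjusted p = 0.182, and 0.108 with the block).

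A list of 20 genes held feedback regulators of MAP kinases, EGR proteins and mRNA decay, and the NF-kB inhibitor Nfkbia. Of these 20 genes 1 fell without the block, and 1 rose and 2 fell with it (median -0.03). The 1 called without the block was Nfkbia, which fell by 1.51 (SE 0.22, limma adjusted p = 0.0173). Its call was lost without array 3 of mCherry- (0.0516) or array 5 of mCherry+ (0.0577). The phosphatase Dusp2, a brake on MAP kinases, fell by 0.90 with the block only (adjusted p = 0.0352, and 0.0709 without). Its relative Dusp16, which is outside the naming rule, rose by 0.87 with the block only (0.0428 and 0.347). Of 17 other bZIP partners of AP-1 none was called by limma in either fit (median -0.13). By sign 4 were higher and 13 lower in mCherry+. Their mean level was lower in 5 of 5 pairs, by differences of -0.32 to -0.073. Batf differed by -0.74 (limma adjusted p = 0.382) and Jdp2, a repressor of AP-1, by -0.72 (limma adjusted p = 0.176). Of 25 upstream MAP kinase, SRF and CREB genes 0 were called without the block, and 1 rose and 1 fell with it (median -0.01). The p38 kinase kinases Map2k3 and Map2k6 went apart, at -0.97 (adjusted p = 0.0298 with the block, 0.338 without) and 0.84 (0.0188 and 0.133). Of 11 measured heat shock genes 0 were called in either fit (median -0.14), with Hspd1 at -0.29 (limma adjusted p = 0.929) and Hsph1 at -0.27 (0.976). By sign 1 was higher and 10 lower in mCherry+. The mean level of these 11 was lower in 5 of 5 pairs, by differences of -0.23 to -0.0071.

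Among the 6 related lists, that of cytokines, chemokines and mediators that AP-1 or EGR proteins are known to bind or to act on moved most. The lists were chosen with earlier results of these data known, so this ranking is a description without a test. Binding to these genes was not measured here, and the part of AP-1 or EGR proteins in their differences was not tested. Of 19 genes 5 fell and 0 rose without the block, and 7 fell and 2 rose with it (median -0.28). Over all genes 0.355% were called without the block and 1.76% with it, in either direction. The cytokine Osm fell from 8.23 ± 0.44 to 5.05 ± 0.30 (limma adjusted p = 9.92e-05). Icam1, an adhesion molecule, fell by 1.33 (limma adjusted p = 0.00739), and both calls held in 10 of 10 fits with 1 array left out. Il6 fell by 2.44 (limma adjusted p = 0.0457), Tnf by 2.40 (0.0384) and the cyclooxygenase Ptgs2 by 1.30 (0.0346). The calls of these last 3 held in 3, 1 and 3 of the 10 fits, with adjusted p up to 0.139, 0.11 and 0.106. In mCherry+ arrays Osm (5.05) and Il6 (4.24) lay below the table median of 5.36. With the block only, and outside the naming rule, Ccl4 rose by 0.70 (limma adjusted p = 0.0419, and 0.328 without) and Plaur by 0.86 (0.00413 and 0.122). Likewise Tnfaip3 fell by 0.61 (0.0176 and 0.586) and Vegfa by 0.47 (0.0271 and 0.867). The mean levels of the neutrophil and eosinophil markers, given above, were lower in the same arrays. The median differences of these marker lists were -0.14 and -0.06, and their part in these falls was not tested.

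**Figure D3:**
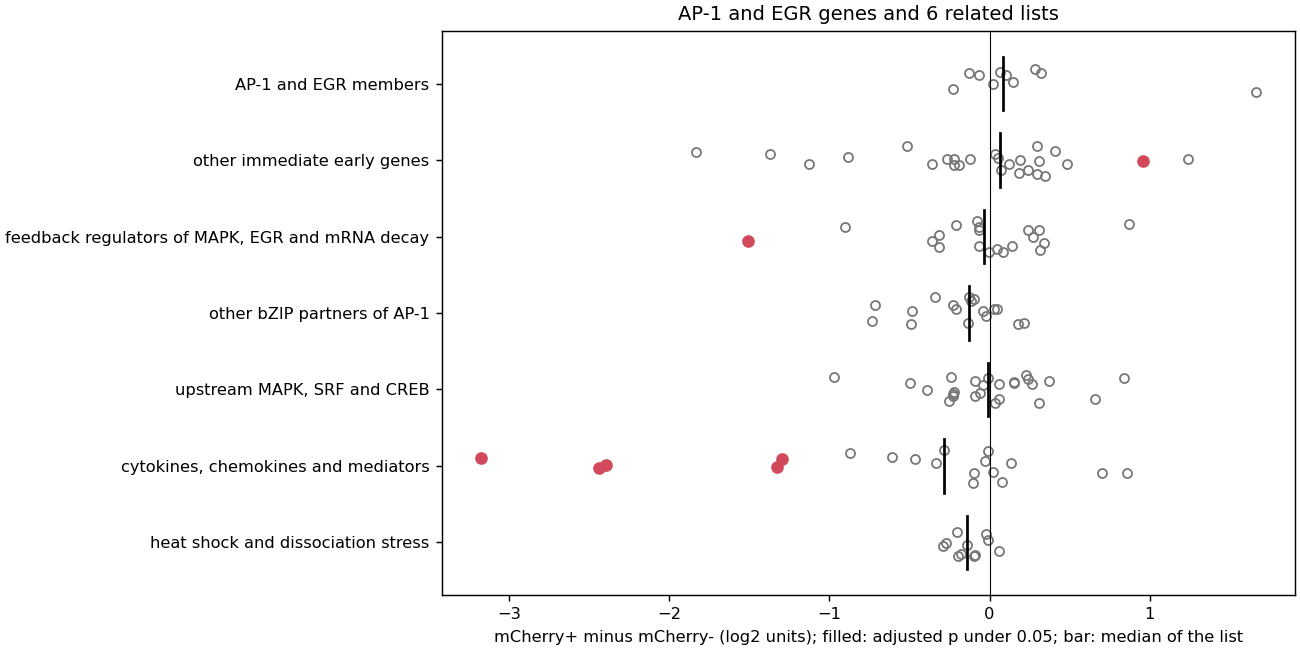
Difference mCherry+ minus mCherry- in log2 units (horizontal axis) of every measured gene of the AP-1 and EGR members and of 6 related lists, filled where limma's adjusted p without the block is under 0.05, with a bar at each list's median. Egr2 stands alone at the right of the members, and 5 filled points of the cytokine and mediator list lie between -3.18 and -1.30.

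Genes with the most similar profile were sought by root mean square distance between profiles over the 10 reporter arrays, each centred on its mean, among 10817 genes above the table median. For Fos these were Snora31 (0.075), Ugcg (0.084) and Ccar1 (0.10), where Fos itself varied by 0.19 around its mean. For Egr1 they included Mdh1 (0.19) and Gmds (0.22), where Egr1 varied by 0.61. For Junb they were Fcsk (0.081), Vps8 (0.089) and Mylk (0.098), where Junb varied by 0.19. Egr2 was added after its values were seen. Its nearest were Hsd17b7 (0.48), Nr4a2 (0.48) and Cd22 (0.50), where Egr2 varied by 0.97. Their differences between the sorts were 1.46, 1.24 and 2.58, which the choice by likeness to Egr2 over the same arrays fixes in direction. The nearest member to Egr1 was Jun (0.34) and the nearest to Egr2 was Fosl2 (0.84).

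The 3 single arrays address the same subsets sorted by surface Clec4a4, and the effect of losing Ahr in Clec4a4- cells. Each group is a single array, so nothing here could be checked against replicates or tested. No member was 2-fold or more apart between WT Clec4a4+ and WT Clec4a4-, where 1.67% of all genes were. Egr2 stood at 6.75 in WT Clec4a4+, 6.51 in WT Clec4a4- and 6.63 in Ahr KO Clec4a4-, the order kept for the values that follow. Its WT difference was 0.24, below the lowest of the 5 reporter differences (1.15), and 31.7% of all genes were at least as far apart. The tables come from different array models, so the difference between 0.24 and 1.66 was not tested. Fosl2 stood at 9.33, 9.34 and 9.65, Egr1 at 6.94, 6.94 and 6.51, and Egr3 at 5.28, 5.25 and 5.23.

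The WT Clec4a4- array had the highest value of Junb, Ier2, Fosb and Jund. Junb stood at 10.90, 11.42 and 10.38. It was 2.05-fold lower in the Ahr KO array than in WT Clec4a4- (difference -1.03). This was the 1 member of 10 past 2-fold in that comparison, where 1.37% of all genes were past it. The difference of the Ahr KO array from WT Clec4a4+ was -0.52 for Junb, and 0 members were past 2-fold, where 0.992% of all genes were. In the reporter table the 5 differences of Junb between the sorts ran from -0.23 to 0.44.

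Ier2 stood at 6.996, 7.74 and 6.96. WT Clec4a4+ was lower than WT Clec4a4- by a difference of -0.74, which 3.82% of all genes reached, and the Ahr KO array by -0.77, which 3.13% reached. The WT difference lay within the range of the 5 reporter differences of Ier2, -1.01 to 0.40. Fosb stood at 11.17, 11.57 and 11.08, with differences of -0.41 and -0.50 from WT Clec4a4-. Jun was the member with the highest WT Clec4a4+ difference, at 11.73, 11.28 and 11.40 (0.45). Fos stood at 8.66, 8.45 and 8.31, and Jund at 6.58, 6.68 and 6.51. The Ahr KO array was the lowest of the 3 for 7 of the 10 members and for 29.6% of all genes, with a median difference from WT Clec4a4- of -0.15 against 0 over all genes. Both comparisons with WT Clec4a4- share that array.

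**Figure D4:**
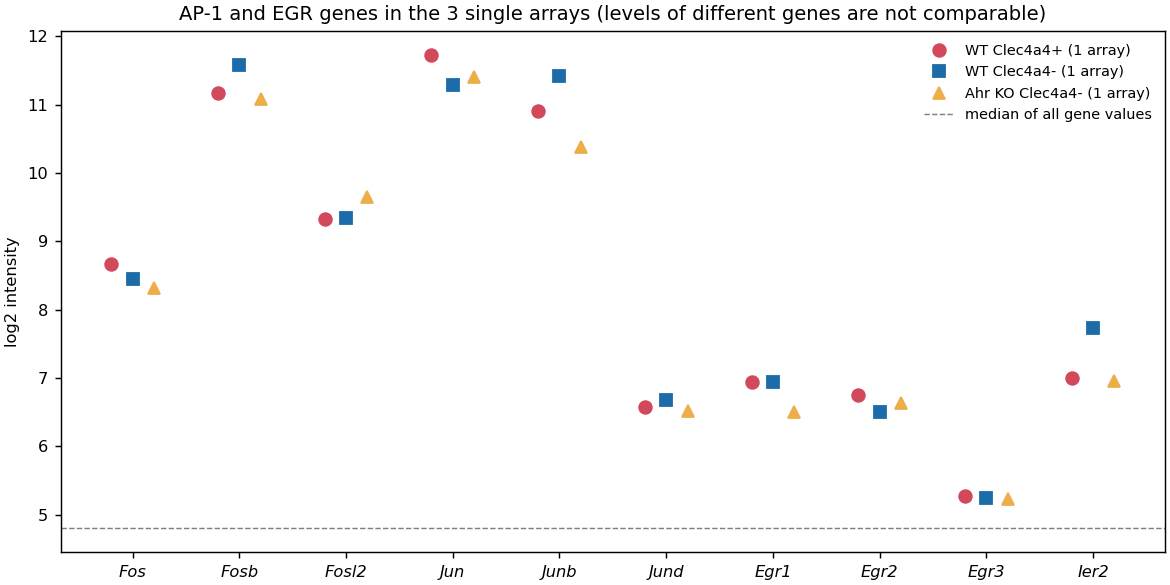
Log2 intensity (vertical axis) of each AP-1 and EGR gene in 1 array each of WT Clec4a4+ (circle), WT Clec4a4- (square) and Ahr KO Clec4a4- cells (triangle), with the median of all gene values as a dashed line at 4.80. The squares of Junb (11.42), Ier2 (7.74) and Fosb (11.57) lie above their circles and triangles, and the 3 symbols of Egr2 lie within 0.24 of each other.

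Related genes in the single arrays are given as values. Rhob stood at 9.63, 8.74 and 9.56 and Nr4a2 at 7.17, 5.98 and 7.30, both higher in WT Clec4a4+ than in WT Clec4a4- (0.89 and 1.19), the direction they had in the reporter sorts. Fosl1 stood at 5.45, 7.39 and 6.90 (-1.94) and Myc at 6.02, 7.20 and 7.98 (-1.17), both lower in WT Clec4a4+. Zfp36, which encodes an mRNA decay factor induced with these genes, stood at 11.49, 12.18 and 11.47. Of the 26 other immediate early genes, 1 was past 2-fold higher and 2 lower in WT Clec4a4+ against WT Clec4a4-. In the Ahr KO array against WT Clec4a4-, 2 of them were higher and 1 lower. Of the 19 cytokines, chemokines and mediators, 1 was higher and 5 lower in WT Clec4a4+ against WT Clec4a4-, among them Ptgs2 (-1.69), Il6 (-1.63) and Osm (-1.60). Against the same WT Clec4a4- array, 0 of the 19 were past 2-fold higher and 3 lower in the Ahr KO array. Ptgs2 (-2.53) and Osm (-1.06) were among those lower, while Il6 differed by 0.58. The shares of all genes past 2-fold in these comparisons, given above, were 1.67% and 1.37%. In the same WT arrays 5 of the 18 macrophage and dendritic cell markers were past 2-fold higher and 1 lower in Clec4a4+, with a mean level of 6.12 against 5.58, and of the 12 neutrophil markers 1 was higher and 2 lower. Their part in the differences of these lists was not tested.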

How the data were processed

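Per the submitters' processing notes, the authors processed the arrays with RMA, which corrects background, normalizes arrays to 1 distribution and summarises probe sets; no version was named there. Per the labels' protocols, RNA came from RNeasy Micro columns and 2 ng was amplified for labelling. The deposited values are log2 intensities in 2 tables, normalized separately, so comparisons stayed within a table; the precision is limited by the number of arrays. Probe sets were named by Entrez identifier with symbols from RefSeq (GRCm38.p6), or by accession, and the brightest probe set of a gene was kept. Differences were tested with limma 3.58.1 in R 4.3.3 (trend and robust moderation, two-sided, no covariate), a script tested on simulated data. Arrays of the same number deviated together from their group means (correlations 0.659, 0.165, 0.171, 0.527 and 0.199, and 9 of 10 arrays closest to their own number), so the replicate number was also fitted as a block; the labels do not say what it stands for. In single arrays a gene counted as apart at 2-fold or more with the higher value at or above the table median. Named genes were all members, up to 4 called genes of each related list or else the 2 largest differences, the 3 largest WT differences of each list, and the 2 brightest markers of each marker list, of which some are not printed, and the 3 genes with the most similar profile to Fos, Egr1 and Junb, of which 1 is not reported here. The members and lists were chosen with earlier results of these data known.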

Additional observations from a re-analysis of the deposited data

Results flagged for a closer look

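Fosl2 met 2 criteria for a closer look. In the mCherry- group, the array of number 1 (8.10) lay apart from the next lowest (8.42), with a gap of 0.777 of the group's range, above Dixon's critical value of 0.71 for 5 samples. This was 1 of 20 groups examined, and chance flags about 1 in 20. Fosl2 was also higher in mCherry+ in 5 of 5 pairs but differed by -0.0042 between the WT arrays, the other direction by sign. The WT value is near 0, the tables are of different array models, and the difference between them was not tested.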

How the results depend on the processing

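Over 28 other settings of the reporter comparison Egr2 stayed higher in mCherry+ (1.47 to 1.86, adjusted p 0.00417 to 0.289 in limma). It was called in 8: with the replicate block (1 of 10 members called), with dim genes left out (1 member, adjusted p = 0.0378), without array 1 of mCherry+ (adjusted p = 0.0474), and in all 5 block fits without both arrays of 1 number (1 member each, added after seeing the data). With 1 array left out, 0 to 1 members were called and their median difference was 0.0089 to 0.16. The count of all genes called was 76, with 376 under the block, 34 over all probe sets, 122 without dim genes, 29 to 115 with 1 array left out (29 without array 5 and 115 without array 4 of mCherry+), and 40, 12, 13, 135 and 13 without both arrays of numbers 1 to 5. The sign turned for Jun without number 1 (-0.011), Fosb without number 2 (0.041) or 5 (0.062) and Egr3 without number 5 (-0.018), with the same values with and without the replicate block. With 1 array or both arrays of a number left out, the ranges crossed 0 for Fosb (-0.19 to 0.11), Jun (-0.10 to 0.23) and Egr3 (-0.041 to 0.076), none of them called. The block changed no other member's call. In the single arrays a 1.5-fold threshold gave 1 member (Ier2) between the WT arrays and 2 (Junb and Ier2) for Ahr KO against WT Clec4a4-. Fewer arrays or a changed set of genes tested are part of these settings; other causes were not tested.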
